A study of Harpegnathos saltator with 36 samples.

Results

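The genes described here are 44 ovary genes of the ant Harpegnathos saltator whose RNA level in all 4 revertants and all 4 gamergates lay on one side of all 4 workers, while the ranges of revertants and gamergates overlapped. They were chosen by their ovary values. Each count was divided by the total of its library and scaled to counts per 1000000 (CPM), genes averaging 5 CPM or more over the 12 ovary libraries were kept (8506 of 12654 genes), and levels were compared as log2(CPM + 1). The rule allowed up to 60 genes and found 44, which is 0.517% of the 8506, with 17 higher and 27 lower than in workers. The gene LOC105184204 was left out by name. Since the ovary values made the choice, they are given as a description with no test, and tests of these genes are read only in the brain, whose libraries the rule did not use.

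The revertants, gamergates and workers were adult females of about 6 months, with no genetic or drug treatment named in the labels. Gamergates were former workers that had won their place as egg layers in a colony in transition, and the workers came from such a colony too. Revertants had first become gamergates, were then isolated, and were placed in a mature colony where other ants policed them until their reproduction ceased. Each library was made from 1 ant, with 4 ovary and 4 brain libraries per caste (the brain without its visual part), and the colony of the revertants differed from that of both other castes, so colony and caste cannot be told apart in any comparison with revertants. Fat body samples of the same study were not analysed here. In each list of values below, the values run over libraries 1 to 4 of the caste named.

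In Harpegnathos, a worker that wins the dueling after loss of the queen builds up its ovary and lays eggs, and this change of caste can be undone in adult life. An ant ovary holds germline stem cells in the germarium, and further down egg chambers in which nurse cells feed the oocyte and follicle cells surround it and lay down the eggshell. Worker ovaries stay small with few young egg chambers, and gamergate ovaries carry yolky oocytes. In the 44 genes the level in all revertant ovaries was outside the worker range, on the side of the gamergates, and overlapped the gamergate range.

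The ovary libraries held 1663266 to 7391217 counts in revertants, 5354569 to 23882325 in gamergates and 1863023 to 7519671 in workers. Germline genes marked the tissue: vas had a mean of 774 CPM in ovary and 93.1 CPM in brain. Worker 3 stood apart from the other workers. Its 3 follicle and eggshell genes (fs(1)N, yellow-g and yellow-g2) summed to 543 CPM, against 27.6 to 86.0 CPM in workers 1, 2 and 4, and its 17 muscle genes summed to 2297 CPM, against 6486 to 12108 CPM. Revertants 2 and 3 had 504 and 741 CPM of the eggshell genes and revertants 1 and 4 had 28.9 and 11.03 CPM. In revertants and workers these sums were nearly all fs(1)N, with means of 321 and 176 CPM. Yellow-g averaged 0.318 and 0.0332 CPM there, and yellow-g2 0.0782 and 0.0332 CPM. The ovary libraries of revertants and workers with more than 3500000 counts were those with high sums, so depth and fs(1)N moved together. Follicle content is not read from this 1 gene.

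Genes set apart in workers were few beside those set apart in gamergates. In the same 8506 ovary genes, 3604 (42.4%) had all gamergates on one side of overlapping revertants and workers, and 30 (0.353%) had all revertants on one side of overlapping gamergates and workers. Without the condition that revertants and gamergates overlap, 68 genes had the workers apart, and in 23 of the other 24 the revertant mean lay between those of workers and gamergates. Among the 17 higher genes the revertant mean differed from the worker mean by a median of 0.96 on the log2(CPM + 1) scale and the gamergate mean by 1.17. Among the 27 lower genes these medians were -0.45 in revertants and -0.67 in gamergates under library totals, -0.40 and -0.37 under TMM sizes (edgeR's trimmed mean of M values), and -0.39 and -0.47 under DESeq2 size factors. Over all 8506 genes the medians were -0.07 in revertants and -0.11 in gamergates under library totals. The revertant mean was nearer to the workers than the gamergate mean in 13 of the 17 higher genes under library totals and in 14 under either other scaling. In the lower genes this depended on the scaling, with 23 of 27 under library totals, 9 under TMM sizes and 17 under DESeq2 size factors.

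The distance from the nearest revertant or gamergate library to the nearest worker library, called the gap, was small for most of these genes. It was at least 0.1 on the log2 scale in 9 of the 17 higher and 10 of the 27 lower genes, and at least 0.5 in 2 higher genes and in no lower gene. In 3 genes, egr, Idgf4 and LOC105182809, the exact 95% Poisson intervals of the 2 nearest libraries were apart, and in the others they overlapped. These intervals cover counting error only. The choice of library size decided many memberships. Under TMM sizes 43 genes met the rule, 26 higher and 17 lower, and 21 of the 44 genes listed were among them. Under DESeq2 size factors 39 genes met it, 24 higher and 15 lower, and 24 of the 44 were among them. Both scalings kept 20 of the 44, 11 higher and 9 lower, and neither kept 19. The median gamergate difference from workers over all genes was 0.18 under TMM and 0.08 under DESeq2 sizes, against -0.11 under library totals, so small differences below are relative to these shifts. Worker 3 was the lowest worker, and so set the gap, in 16 of the 27 lower genes. Without worker 3, 287 genes met the rule, without worker 4 74 genes and without revertant 4 67 genes.

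**Figure D1:**
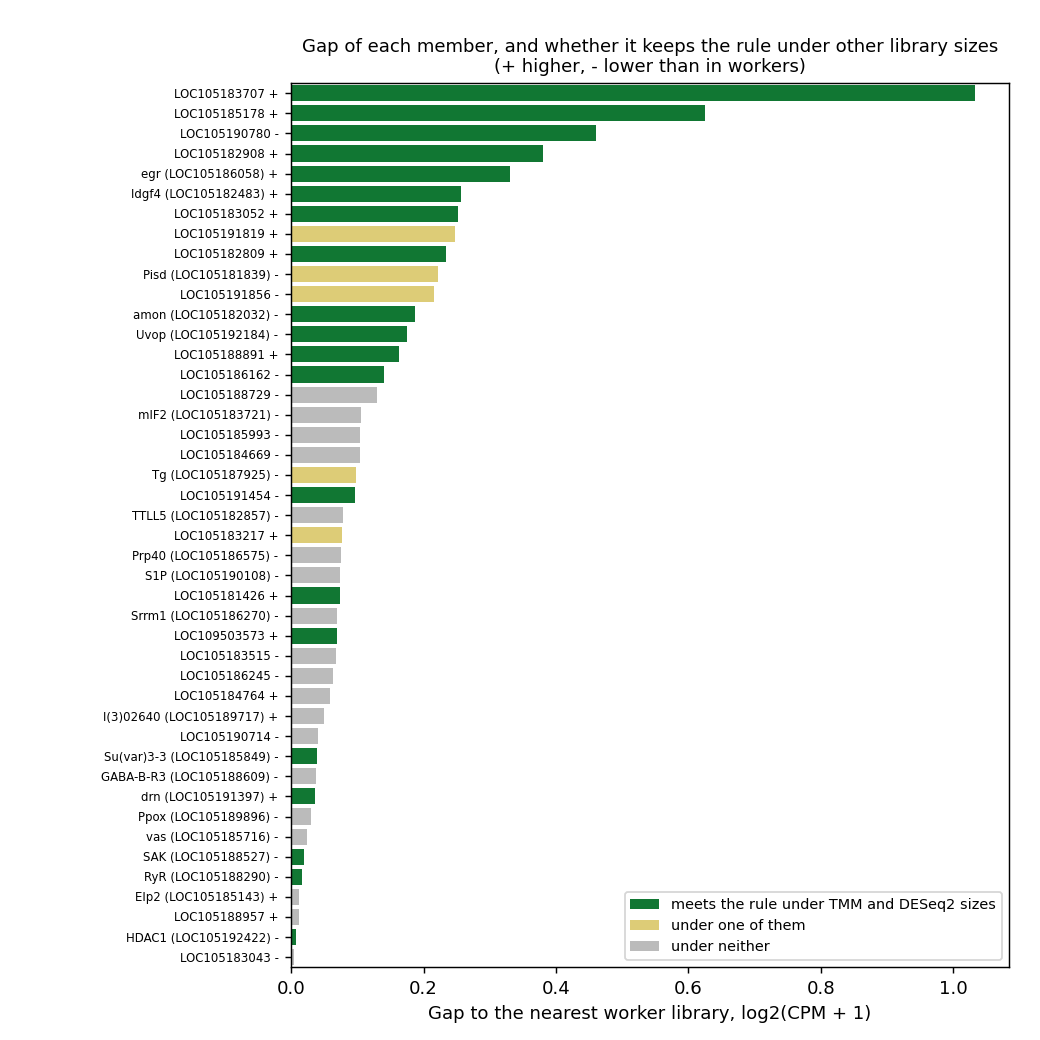
Gap of each of the 44 genes on the log2(CPM + 1) scale, from the nearest revertant or gamergate library to the nearest worker library, with genes ordered by it. Bar colours show that 20 genes met the rule under both other library sizes and 19 under neither, most of these with gaps near or under 0.1.

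The border of the rule lay close to its last genes. The smallest gap of a higher gene was 0.012 (LOC105188957) and that of a lower gene 0.0048 (LOC105183043). The nearest genes outside had worker ranges that overlapped the others by 0.017 (LOC105183269, gap -0.017) and 0.0019 (LOC105188979, gap -0.0019). The lowest mean among the 44 was 5.65 CPM (LOC105191856), and the highest mean among genes that met the order but not the minimum was 4.16 CPM (LOC109504667). LOC105184204 had a gap of 0.13 and a mean of 2.64 CPM.

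All 44 genes are listed as protein coding in RefSeq. A gene symbol or a protein name was found for 24 of them, 6 of the 17 higher and 18 of the 27 lower genes. By function the named genes fell into receptors and signalling (2 higher, 4 lower), RNA and translation (1 higher, 4 lower), enzymes of metabolism (1 higher, 3 lower), proteases (2 lower), transcription and chromatin (2 lower), cytoskeleton and cell division (2 lower), channels (1 lower) and others (2 higher). No list of neuron, muscle, fat body, hemocyte, gut or eggshell markers held any of the 44, and the germline list held vas.

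Among the higher genes that have a name, egr and Idgf4 had the largest gaps. Egr (LOC105186058), the ant form of Eiger, which in fruit fly is the tumor necrosis factor ligand upstream of JNK signaling, had 476, 293, 248 and 547 CPM in revertants, 352, 339, 416 and 431 CPM in gamergates and 144, 188, 197 and 156 CPM in workers. The lowest of the 8 reproductive and former reproductive ovaries, revertant 3, was above the highest worker, worker 3. On the log2(CPM + 1) scale egr averaged 8.54 ± 0.54 in revertants, 8.58 ± 0.17 in gamergates and 7.42 ± 0.21 in workers (SD, n = 4 each). Idgf4 (LOC105182483), a chitinase-like secreted protein of the imaginal disc growth factor family, had 1645, 663, 678 and 1297 CPM in revertants, 978, 827, 1014 and 1153 CPM in gamergates and 433, 313, 555 and 369 CPM in workers. Revertants 2 and 3 lay under the gamergates and revertants 1 and 4 above them, and all 8 exceeded the workers. Its mean difference from workers was 1.28 in revertants and 1.27 in gamergates, and both genes met the rule under all 3 library sizes.

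**Figure D2:**
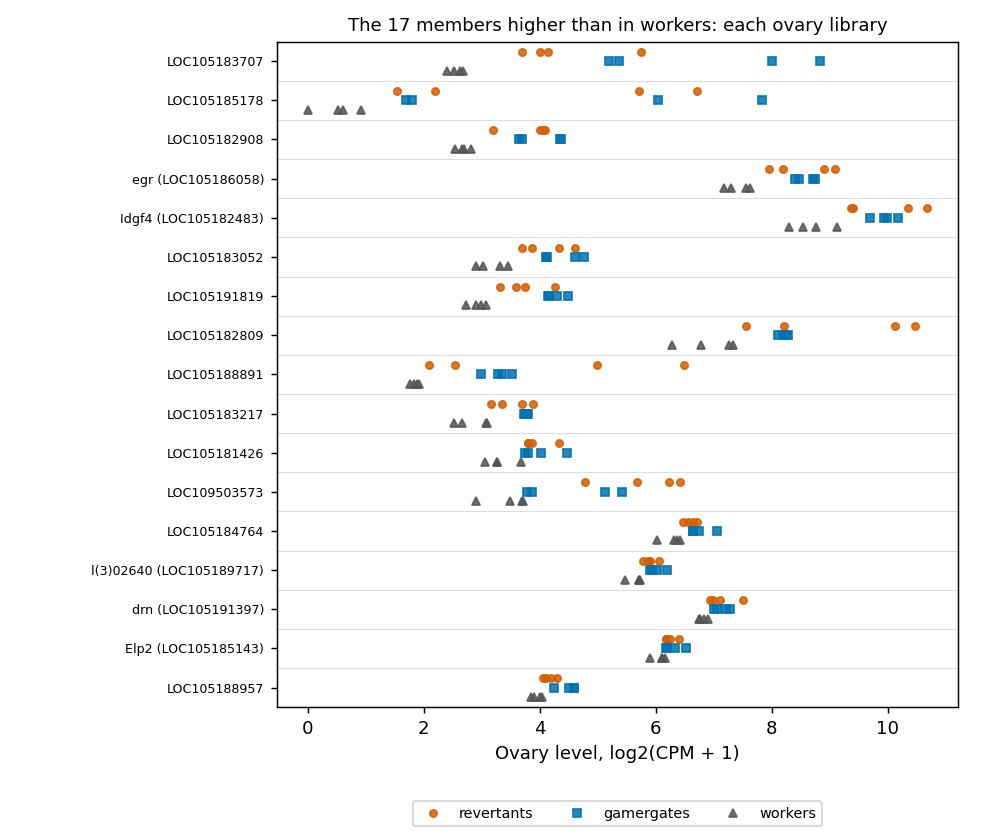
Ovary level of the 17 higher genes, as log2(CPM + 1), in each revertant (circles), gamergate (squares) and worker library (triangles), ordered by the gap. All 8 revertant and gamergate points lie to the right of the 4 worker points in each row, by the construction of the list.

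The largest gap belonged to LOC105183707, at 1.03. It had 12.02, 52.6, 15.1 and 16.8 CPM in revertants, 256, 35.7, 40.2 and 455 CPM in gamergates and 4.76, 4.31, 5.19 and 5.37 CPM in workers. Workers were tightly grouped, and gamergates 1 and 4 stood far above the rest of the libraries. LOC105185178 was near the detection limit in workers, with counts of 3, 1, 4 and 0 reads. It had 3.61, 51.1, 103 and 1.92 CPM in revertants and 2.47, 2.24, 228 and 64.7 CPM in gamergates, against 0.893, 0.431, 0.532 and 0 CPM in workers. Revertants 1 and 4 and gamergates 1 and 2 were within a few CPM of the workers, and the other 4 libraries were 51.1 CPM or higher. The revertants held 6, 378, 583 and 4 reads, so its gap rests on the few reads of revertants 1 and 4 and of the workers.

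In 4 of the 17 higher genes the mean of revertants was above that of gamergates, and in 3 of the 4 (LOC105182809, LOC105188891 and Idgf4) revertants 1 and 4 were the highest libraries. LOC105182809 had 1418, 188, 296 and 1116 CPM in revertants, 304, 276, 309 and 294 CPM in gamergates and 159.8, 77.1, 109 and 152 CPM in workers. Revertants 1 and 4 were above every gamergate, and revertant 2 was below every gamergate. LOC105188891 had 30.7, 3.25, 4.79 and 89.2 CPM in revertants, 8.67, 6.91, 9.17 and 10.48 CPM in gamergates and 2.38, 2.58, 2.79 and 2.68 CPM in workers. Again revertants 1 and 4 exceeded all gamergates, and revertants 2 and 3 lay between workers and gamergates. LOC109503573 had 50.5, 84.6, 26.6 and 74.3 CPM in revertants, 13.5, 12.7, 33.9 and 41.6 CPM in gamergates and 11.9, 12.1, 6.52 and 10.2 CPM in workers. Here revertants 1, 2 and 4 exceeded all gamergates, and gamergate 2 exceeded worker 2 by 0.07 on the log2 scale. The mean revertant difference from gamergates was 0.88 for LOC105182809, 0.74 for LOC105188891 and 1.24 for LOC109503573. For Idgf4 it was 0.01.

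Brain values of LOC105182809, LOC105188891 and egr, which were highest in revertants 1 and 4 in ovary, were set beside those of Idgf4. In brain LOC105182809 had 345, 81.6, 79.4 and 421 CPM in revertants, 49.2, 34.3, 50.6 and 50.2 CPM in gamergates and 66.2, 48.1, 91.96 and 61.2 CPM in workers. LOC105188891 had 13.2, 1.63, 2.39 and 42.03 CPM in revertant brains, 0.566, 0.602, 2.22 and 2.28 CPM in gamergate brains and 1.01, 2.64, 0.758 and 2.24 CPM in worker brains. Egr had 450.3, 131, 200.3 and 359 CPM in revertant brains, 126, 147, 197 and 155 CPM in gamergate brains and 196, 187, 205 and 186 CPM in worker brains. In all 3 genes brains 1 and 4 were the highest revertant brains, as ovaries 1 and 4 were the highest revertant ovaries. Idgf4 did not share this, since its revertant brains had 892, 1105, 938 and 1734 CPM, with revertant 1 the lowest. The 3 genes and the pairing of numbers were singled out after their values were seen. The labels do not say that a number marks the same ant in both tissues. Deviations of libraries from their caste mean were correlated between ovary and brain, across the genes at 5 CPM or more in both tissues. In revertants they correlated at 0.14 to 0.32 for the same number and at -0.29 to 0.17 for different numbers. In gamergates these ranges were 0.05 to 0.15 and -0.17 to 0.09, and in workers -0.17 to 0.22 and -0.26 to 0.25. Deviations from a mean cancel out within a caste, so the same-number and different-number values are not independent. This is a description over genes, which are not replicates. Ovaries 1 and 4 were also the 2 shallowest revertant ovary libraries and those with low eggshell sums, which were nearly all fs(1)N. The part of this in the result was not tested. In brain, all 4 revertant libraries had more than 3500000 counts, at 6691175, 12917125, 6701284 and 4115800. Brains 1 and 4 were again the 2 shallowest, brain 1 only just below brain 3, and the part of this was not tested either.

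**Figure D3:**
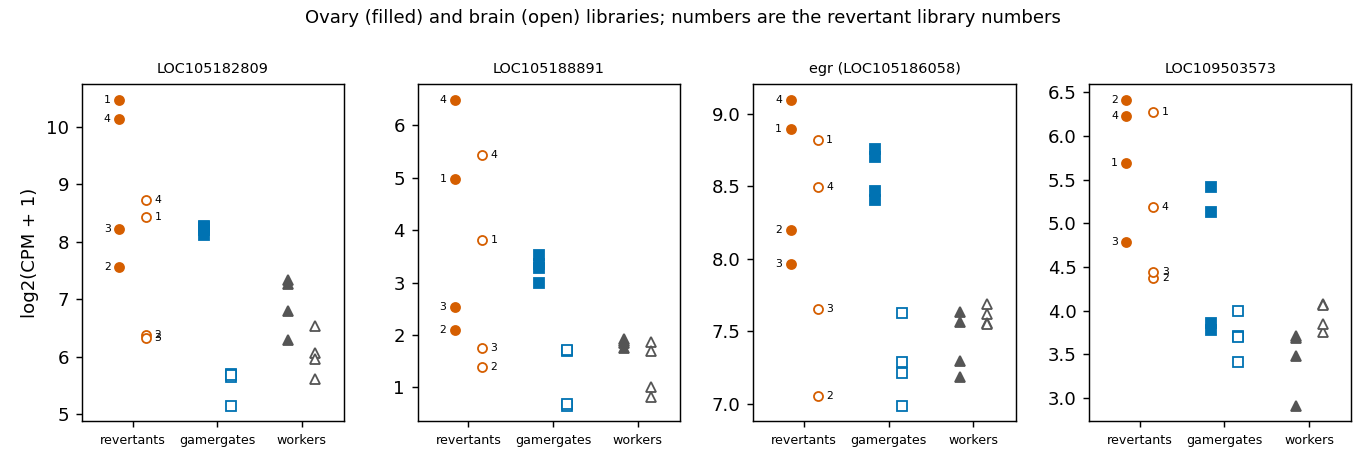
Levels of 4 genes as log2(CPM + 1) in ovary (filled) and brain (open) libraries of revertants, gamergates and workers, with the library number beside each revertant. In LOC105182809, LOC105188891 and egr, revertants 1 and 4 are the upper pair in both tissues, and in LOC109503573 they are the upper pair in brain only.

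The next higher genes, all without a name, were at 26.1 CPM or less in every library. LOC105182908 had 15.03, 15.96, 15.6 and 8.15 CPM in revertants, 19.6, 19.4, 12.02 and 11.5 CPM in gamergates and 5.36, 6.03, 5.45 and 4.83 CPM in workers, with revertant 4 the nearest to the workers. LOC105183052 had 19.2, 23.3, 13.7 and 11.99 CPM in revertants, 16.5, 16.2, 26.1 and 23.4 CPM in gamergates and 7.14, 9.91, 8.91 and 6.44 CPM in workers. Revertants 3 and 4 were below every gamergate in this gene. LOC105191819 had 9.02, 18.1, 12.4 and 11.03 CPM in revertants, 16.6, 18.7, 21.5 and 16.8 CPM in gamergates and 7.44, 5.60, 6.52 and 6.98 CPM in workers, so only revertant 2 was within the gamergate range. LOC105183217 had 13.8, 9.20, 7.98 and 11.99 CPM in revertants, 12.5, 12.3, 12.8 and 12.9 CPM in gamergates and 7.44, 4.74, 5.32 and 7.51 CPM in workers. LOC105191819 met the rule under DESeq2 sizes and not under TMM, and so did LOC105183217. LOC105181426 had 19.2, 12.9, 13.7 and 12.9 CPM in revertants, 12.9, 21.3, 12.5 and 15.2 CPM in gamergates and 8.63, 8.61, 7.31 and 11.8 CPM in workers. Worker 4 reached within 0.07 of the nearest gamergate on the log2 scale.

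The remaining named higher genes differed by little. LOC105184764, whose protein is named as leucine-rich repeat flightless-interacting protein 2, had 87.8, 93.6, 98.6 and 105 CPM in revertants, 98.4, 132, 98.99 and 107 CPM in gamergates and 81.2, 63.7, 79.1 and 84.3 CPM in workers. Elp2 (LOC105185143), a subunit of the Elongator complex that modifies the wobble base of transfer RNAs, had 71.5, 74.5, 84.1 and 71.4 CPM in revertants, 72.2, 91.5, 79.8 and 71.7 CPM in gamergates and 70.8, 59.01, 67.7 and 68.2 CPM in workers. For Elp2 the lowest revertant and the highest worker differed by under 1 CPM, and neither gene met the rule under the other library sizes. L(3)02640 (LOC105189717), which in fruit fly encodes the porphobilinogen deaminase of heme synthesis, ranged over 54.3 to 66 CPM in revertants, 59.1 to 72.1 CPM in gamergates and 43.5 to 52.4 CPM in workers. Drn (LOC105191397) ranged over 122 to 180.3 CPM in revertants, 127 to 154 CPM in gamergates and 107 to 119 CPM in workers. The mean difference of revertants from workers was 0.24 for l(3)02640, 0.32 for drn and 0.18 for Elp2, against a median size of 0.16 over all genes.

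Among the lower genes with a name, amon, RyR, Tg and GABA-B-R3 had the largest differences between revertants and workers. Amon (LOC105182032) is named as neuroendocrine convertase 2, the protease that cuts neuropeptide precursors. It had 9.02, 7.31, 3.73 and 12.9 CPM in revertants, 3.80, 2.05, 5.69 and 9.80 CPM in gamergates and 14.9, 19.4, 38.7 and 16.6 CPM in workers. Worker 3 was the highest worker, and revertant 4 was the highest of the other 8 libraries. GABA-B-R3 (LOC105188609), a metabotropic receptor of the GABA-B family, had 4.81, 2.84, 4.08 and 4.79 CPM in revertants, 6.27, 3.74, 3.64 and 2.56 CPM in gamergates and 17.6, 6.46, 8.64 and 7.51 CPM in workers. Worker 1 stood above the other workers, and gamergate 1 was within 0.04 of worker 2 on the log2 scale. RyR (LOC105188290), the ryanodine receptor that releases calcium from internal stores in muscle and neurons, had 79.96, 46.5, 31.05 and 55.1 CPM in revertants, 31.5, 22.2, 31.8 and 29.6 CPM in gamergates and 105, 190.0, 80.9 and 142 CPM in workers. Revertant 1 was within 1 CPM of worker 3, and the other revertants were well below.

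Uvop (LOC105192184), the ultraviolet-sensitive opsin of photoreceptors, had 7.82, 12.6, 13.1 and 13.4 CPM in revertants, 7.91, 8.22, 11.4 and 10.6 CPM in gamergates and 19.05, 23.7, 15.3 and 18.2 CPM in workers. Revertant 1 was just below the lowest gamergate and the other revertants were above all gamergates. LOC105191454, named as adenylate cyclase type 6, an enzyme that makes cyclic AMP, had 9.02, 8.39, 6.21 and 6.71 CPM in revertants, 8.10, 4.11, 8.42 and 4.15 CPM in gamergates and 13.7, 12.9, 9.71 and 12.3 CPM in workers. LOC105186245, named as frizzled-4, a receptor for Wnt ligands, had 32.5, 37.2, 35.8 and 37.9 CPM in revertants, 28.9, 31.7, 38.4 and 31.4 CPM in gamergates and 40.2, 42.2, 43.8 and 40.8 CPM in workers. The difference from workers was -0.62 in revertants and -0.92 in gamergates for LOC105191454. It was -0.22 in revertants and -0.35 in gamergates for LOC105186245, which met the rule only under library totals.

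Several of these genes had far more RNA in brain than in ovary. The mean brain level exceeded the mean ovary level in 16 of the 27 lower genes and in 2 of the 17 higher genes. The median log2 ratio of brain to ovary means (CPM + 1) was 0.18 in the lower and -0.77 in the higher genes. Over all 8506 ovary genes it was -0.48. The share of all genes with more RNA in brain was not counted, so nothing is read from the 2 counts. RyR averaged 3081 CPM in brain and 70.5 CPM in ovary, amon 458 and 11.996 CPM, and GABA-B-R3 149.8 and 6.08 CPM. In a bulk ovary library fewer cells of a type and less RNA per cell cannot be told apart. The 5 neuron markers (Syt1, Syx1A, Syn, cpx and an ELAV-like gene) summed to 112 to 137 CPM in revertant ovaries, 123 to 142 CPM in gamergate ovaries and 104 to 180 CPM in worker ovaries. They did not move as one. Of 4 tested, Syx1A was higher and Syn lower in gamergate than in worker ovaries (edgeR, 58.3% of all genes called). Syn averaged 6.65 CPM in revertants, 0.961 CPM in gamergates and 14.7 CPM in workers, and Syx1A 60.7, 77.7 and 58.6 CPM. The 17 muscle markers summed to 2445 to 6562 CPM in revertants, 933 to 1119 CPM in gamergates and 2297 to 12108 CPM in workers. The 4 hemocyte markers summed to 110.0 to 318 CPM in revertants, 114 to 140.1 CPM in gamergates and 160.4 to 511 CPM in workers. The 7 fat body markers summed to 45.1 to 9174 CPM in revertants, 803 to 2918 CPM in gamergates and 235 to 4749 CPM in workers. The 11 gut markers summed to 245 to 394 CPM in revertants, 2811 to 4886 CPM in gamergates and 253 to 365 CPM in workers. Gut markers did not move as one, with 4 of 6 tested higher and 2 lower in gamergate than in worker ovaries (edgeR, 58.3% of all genes called). LOC105182906 alone averaged 2369 CPM in gamergates and 4.37 CPM in workers. The ranges of revertants and workers overlapped in each of these lists. For hemocytes this rested on worker 3, since workers 1, 2 and 4 were at 444 to 511 CPM, above all revertants. The median log2 fold change of revertants over workers was -0.98 over the 4 hemocyte markers and -0.93 over the 16 muscle markers tested. Of these markers 0 passed the threshold, as did 0 of all 8667 genes, and 2 and 5 had an unadjusted p under 0.05 (edgeR). The part of these cell types in the result was not tested.

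**Figure D4:**
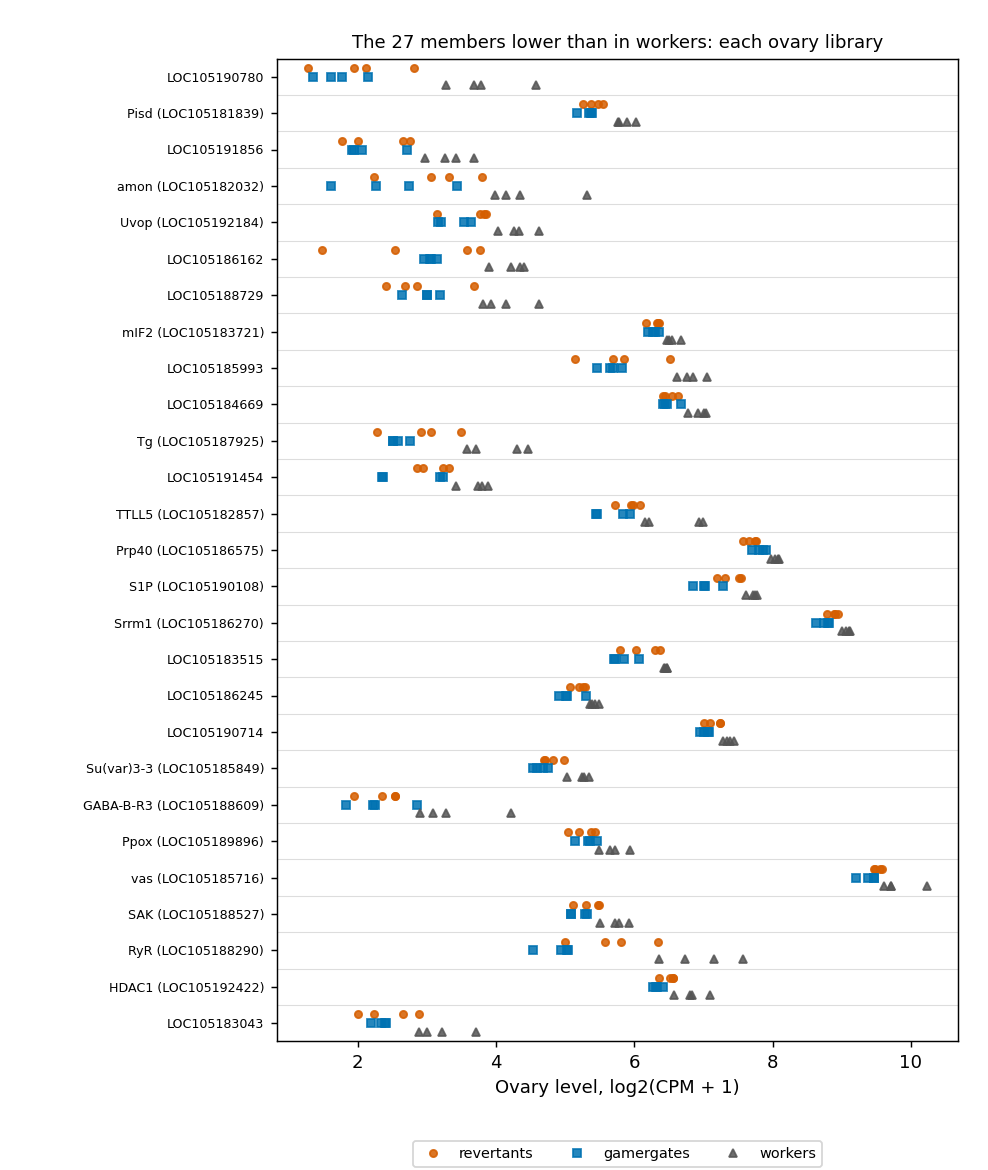
Ovary level of the 27 lower genes, as log2(CPM + 1), in each revertant (circles), gamergate (squares) and worker library (triangles), ordered by the gap. All 8 revertant and gamergate points lie to the left of the 4 worker points in each row, by the construction of the list, and for most rows by less than the spread of the workers.

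The lower gene with the largest gap was LOC105190780, an uncharacterized protein. It had 6.01, 2.84, 1.42 and 3.36 CPM in revertants, 3.42, 2.05, 1.55 and 2.41 CPM in gamergates and 12.8, 22.8, 8.64 and 11.8 CPM in workers. Its level in every revertant but revertant 1 was within or near the gamergate range. LOC105186162 had 1.80, 12.6, 11 and 4.79 CPM in revertants, 6.77, 7.28, 7.83 and 7.32 CPM in gamergates and 20.2, 17.7, 13.96 and 19.3 CPM in workers. Revertants 1 and 4 were below every gamergate and revertants 2 and 3 above every gamergate. LOC105188729 had 5.41, 6.22, 11.9 and 4.32 CPM in revertants, 7.03, 5.23, 8.12 and 7.01 CPM in gamergates and 13.1, 23.7, 14.2 and 16.6 CPM in workers, with revertant 3 the nearest to the workers. LOC105191856 had 2.40, 5.28, 3.02 and 5.75 CPM in revertants, 2.79, 3.17, 5.53 and 2.87 CPM in gamergates and 6.84, 8.61, 9.71 and 11.8 CPM in workers. LOC105183043 had 3.01, 6.36, 3.73 and 5.27 CPM in revertants, 3.54, 4.30, 4.27 and 4.07 CPM in gamergates and 8.33, 12.1, 6.38 and 6.98 CPM in workers. Its revertant 2 and worker 3 were nearly equal, and it has the smallest gap of all. LOC105185993 had 56.5, 34.4, 90.3 and 50.8 CPM in revertants, 49.1, 42.95, 50.7 and 55.8 CPM in gamergates and 114, 132, 107 and 97.2 CPM in workers. LOC105184669 had 98.6, 86.05, 92.4 and 83.9 CPM in revertants, 87.5, 84.6, 101 and 85.8 CPM in gamergates and 130.1, 121, 109 and 128 CPM in workers. Of these 7 genes LOC105190780 and LOC105186162 met the rule under both other library sizes, LOC105191856 under DESeq2 sizes, and the other 4 under neither.

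The chromatin and cell division genes were lower by less. Su(var)3-3 (LOC105185849), the histone demethylase LSD1 that removes methyl groups from lysine 4 of histone H3, had 30.7, 25.03, 24.8 and 27.3 CPM in revertants, 24.6, 22.2, 26.003 and 23.003 CPM in gamergates and 36.9, 37.5, 31.5 and 39.7 CPM in workers. HDAC1 (LOC105192422), a histone deacetylase that shares repressor complexes with LSD1, ranged over 81.2 to 93.5 CPM in revertants, 76.02 to 84.4 CPM in gamergates and 94.02 to 136 CPM in workers. The mean difference of revertants from workers was -0.42 for Su(var)3-3 and -0.33 for HDAC1, and both met the rule under all 3 library sizes. SAK (LOC105188527), the polo-like kinase that starts centriole duplication, ranged over 33.6 to 43.8 CPM in revertants, 32.9 to 38.7 CPM in gamergates and 44.4 to 59.6 CPM in workers, and it too met the rule under all 3. TTLL5 (LOC105182857), an enzyme that adds glutamate chains to tubulin, had 51.7, 66.4, 61.2 and 62.3 CPM in revertants, 42.7, 56.2, 60.5 and 42.99 CPM in gamergates and 73.2, 127, 70.2 and 122 CPM in workers. Workers 2 and 4 were well above workers 1 and 3.

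The genes of RNA handling differed by similar amounts. Vas (LOC105185716), the RNA helicase Vasa that marks the germline, ranged over 709 to 768 CPM in revertants, 589 to 709.9 CPM in gamergates and 781 to 1207 CPM in workers. The other 6 germline genes (yl, tapas, AGO3, LOC105184384, nanos and papi) gave 0 genes past the threshold between revertant and worker ovaries, as did all 8667 genes tested. Between gamergate and worker ovaries 1 was higher and 1 lower, where 58.3% of all genes were called (edgeR). Nothing about the germline is read from these counts. Srrm1 (LOC105186270), a splicing coactivator rich in serine and arginine, had 478, 489.8, 472 and 439 CPM in revertants, 396, 427, 452 and 447 CPM in gamergates and 554, 552, 514 and 535 CPM in workers. MIF2 (LOC105183721), the mitochondrial translation initiation factor, had 81.2, 70.6, 79.1 and 80.1 CPM in revertants, 72.4, 76.4, 78.05 and 81.3 CPM in gamergates and 101, 89.6, 87.5 and 92.3 CPM in workers. Prp40 (LOC105186575), a pre-mRNA splicing factor, ranged over 189 to 216 CPM in revertants, 208 to 238 CPM in gamergates and 251 to 271 CPM in workers. The gamergate difference from workers was -0.26 for mIF2 and -0.23 for Prp40 under library totals, and it turned to 0.04 and 0.07 under TMM sizes. Vas, Srrm1, mIF2 and Prp40 met the rule under library totals only.

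Enzymes closed the list of lower genes. Pisd (LOC105181839), the decarboxylase that makes phosphatidylethanolamine in mitochondria, had 40.3, 45.6, 43.3 and 37.4 CPM in revertants, 34.9, 40.7, 40.4 and 39.7 CPM in gamergates and 63.99, 58.6, 53.3 and 53.7 CPM in workers. Its gap of 0.22 was the second of the lower genes. Ppox (LOC105189896), the protoporphyrinogen oxidase of heme synthesis, had 40.3, 31.8, 35.8 and 42.2 CPM in revertants, 34.2, 40.2, 43.1 and 39.2 CPM in gamergates and 49.1, 51.7, 44.02 and 60.1 CPM in workers. Tg (LOC105187925), a transglutaminase of the annulin type that crosslinks proteins, ranged over 3.84 to 10.2 CPM in revertants, 4.67 to 5.73 CPM in gamergates and 11.01 to 21.1 CPM in workers. S1P (LOC105190108), the site-1 protease that frees membrane-bound transcription factors, ranged over 145 to 186 CPM in revertants, 114 to 154 CPM in gamergates and 196 to 217 CPM in workers. The 2 heme genes of the list therefore had opposite directions, l(3)02640 higher and Ppox lower. Of the 4 other heme genes tested (Alas, Urod, Coprox and FeCH), 2 were called higher in gamergate than in worker ovaries, where 58.3% of all genes were called. Between revertant and worker ovaries 0 of the 4 were called, and 0 of all 8667 genes (edgeR). Nothing about heme genes is read from these counts. The list of heme genes was drawn up after the members were known.

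A direct fit of 4 revertant against 4 worker ovaries called 0 of 42 members tested and 0% of all genes (0 of 8667, quasi-likelihood test of edgeR, p-values adjusted by Benjamini-Hochberg, threshold 0.05), with 29 members and 377 genes at an unadjusted p under 0.05. DESeq2's Wald test called 32 genes in that comparison and 8 of them were members. Between gamergate and worker ovaries 36 of 44 members were past the threshold, against 58.3% of all genes. Between revertant and gamergate ovaries 3 of 44 were, against 57.8% of all genes. The rule used these libraries, so nothing is read from the 3 counts.

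The brain offered a measure that the rule had not used, and the order of castes was looked for there. Of 38 members with a mean of at least 5 CPM in brain, 0 had all revertants and gamergates on their own ovary side of all workers, and 0 had them on the other side. Over all brain genes with that mean, 0.556% (48 of 8640) had such an order in either direction, so a count of 0 among 38 is not set apart from that share. Brain libraries held 4115800 to 12917125 counts in revertants, 1660576 to 1799316 in gamergates and 1339043 to 4926716 in workers. At a mean of 1 CPM or more, 0 of 42 members had the order.

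Between revertant and worker brains, edgeR's quasi-likelihood test called 0 of 42 members tested and 0% of all genes (0 of 9360), with 8 members and 1521 genes at an unadjusted p under 0.05. DESeq2 called 57 genes there, 1 of them a member, LOC105188891. The higher genes had a median log2 fold change of 0.20 in revertant over worker brains, with 9 of 15 positive, and the lower genes one of 0.08, with 9 of 27 negative, while the median over all genes was -0.01. The largest fitted change was that of LOC105188891, at 3.45 ± 1.17 (SE, adjusted p = 0.298, edgeR). LOC105182809 followed with 1.87 ± 0.56 (adjusted p = 0.298, edgeR), LOC109503573 with 1.505 ± 0.45 (adjusted p = 0.298, edgeR) and Idgf4 with 0.86 ± 0.24 (adjusted p = 0.298, edgeR). None of the 4 passed the adjustment.

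Between gamergate and worker brains 0 of 37 members tested passed the threshold, against 1.05% of all genes (89 of 8481, edgeR), and 7 members and 1576 genes had an unadjusted p under 0.05. DESeq2 also called 0 members there, among 338 genes. The smallest adjusted p was that of Su(var)3-3, which had 41.3, 45.8, 40.02 and 43.4 CPM in gamergate brains and 51.96, 56.01, 59.9 and 65.7 CPM in worker brains. Its log2 fold change was -0.49 ± 0.13 (SE, adjusted p = 0.0956, edgeR), with all 4 gamergates below all 4 workers. It passed the threshold in a fit of all 12 brain libraries and in the fit without worker 4.

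Revertant and gamergate brains differed in a large share of all genes, and the members followed that share. Of 39 members tested, 23 (59.0%) were past the threshold, 19 higher and 4 lower in revertants, against 57.4% of all genes (5157 of 8987, edgeR). The brain libraries of revertants and gamergates did not overlap in depth, so depth and caste cannot be told apart in this comparison. Workers 1 and 3 had 3958441 to 4926716 counts in brain and workers 2 and 4 had 1339043 to 1517625. The mean of the deep minus the shallow worker brains had the same sign as the mean of revertant minus gamergate brains in 82.8% of 8640 brain genes and in 19 of these 23 members. With depth above or below 3500000 counts as a term in one fit of 12 brain libraries, 0 of 40 members and 73 of 9148 genes passed. At an unadjusted p under 0.05 there were 6 members (edgeR). All revertant brains were above that limit and all gamergate brains below it. The depth term therefore rested on the 2 deep and 2 shallow worker brains, which left little to test the castes by, and nothing is read from the few calls. Tissue markers moved with this comparison too. The 7 fat body markers summed to 14534 to 19437 CPM in revertant brains, 33355 to 86637 CPM in gamergate brains and 15855 to 20138 CPM in worker brains. This sum was mostly apolpp and vitellogenin, with brain means of 17115 and 11947 CPM. The paper ranks vitellogenin and an arylphorin gene among its top gamergate-biased brain genes. Of 5 fat body markers tested, 3 were lower and 0 higher in revertant than in gamergate brains (edgeR), so fat body content is not read from the sum. The 5 neuron markers summed to 2716 to 3311 CPM in revertant brains, 1798 to 2036 CPM in gamergate brains and 2134 to 2999 CPM in worker brains, and all 5 were higher in revertants than in gamergates. The part of these cell types in the result was not tested.

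All 6 members of the signalling group, sorted by hand, were higher in revertant than in gamergate brains. There 29.9% of all genes were called higher and 57.4% in either direction. With depth as a term 0 of the 6 passed, in a fit whose depth term rested on the worker brains. In ovary 2 of the 6 were higher and 4 lower than in workers. Egr had a log2 fold change of 1.04 ± 0.33 (SE, adjusted p = 0.0187, edgeR) and Idgf4 of 0.77 ± 0.18 (adjusted p = 0.00395, edgeR). Idgf4 had 892, 1105, 938 and 1734 CPM in revertant brains, 708, 761, 872 and 738 CPM in gamergate brains and 715, 621, 838 and 583 CPM in worker brains. The 4 revertants were above all gamergates and all workers. Uvop had 47.7, 42.4, 39.5 and 40.8 CPM in revertant brains, 28.3, 27.7, 13.3 and 20.5 CPM in gamergate brains and 55.6, 43.5, 27.8 and 24.6 CPM in worker brains, with a log2 fold change of 1.10 ± 0.19 (adjusted p = 5.52e-04, edgeR). LOC105191454, the adenylate cyclase, had 57.7, 56.4, 60.3 and 59.8 CPM in revertant brains, 34.5, 30.7, 36.1 and 35.4 CPM in gamergate brains and 47.5, 34.9, 53.3 and 25.4 CPM in worker brains. The deep worker brains 1 and 3 were near the revertants and the shallow worker brains 2 and 4 near the gamergates. The same division of workers was seen in LOC105186245, the frizzled-4 gene, with 28.99, 26.8, 31.9 and 27.7 CPM in revertant brains, 19.8, 18.7, 17.8 and 17.1 CPM in gamergate brains and 31.1, 21.7, 27.8 and 20.2 CPM in worker brains. GABA-B-R3 had 183, 186, 180.1 and 185 CPM in revertant brains, 139.8, 139, 122 and 145 CPM in gamergate brains and 145, 115, 147 and 111 CPM in worker brains, and its revertants were above all workers of either depth.

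**Figure D5:**
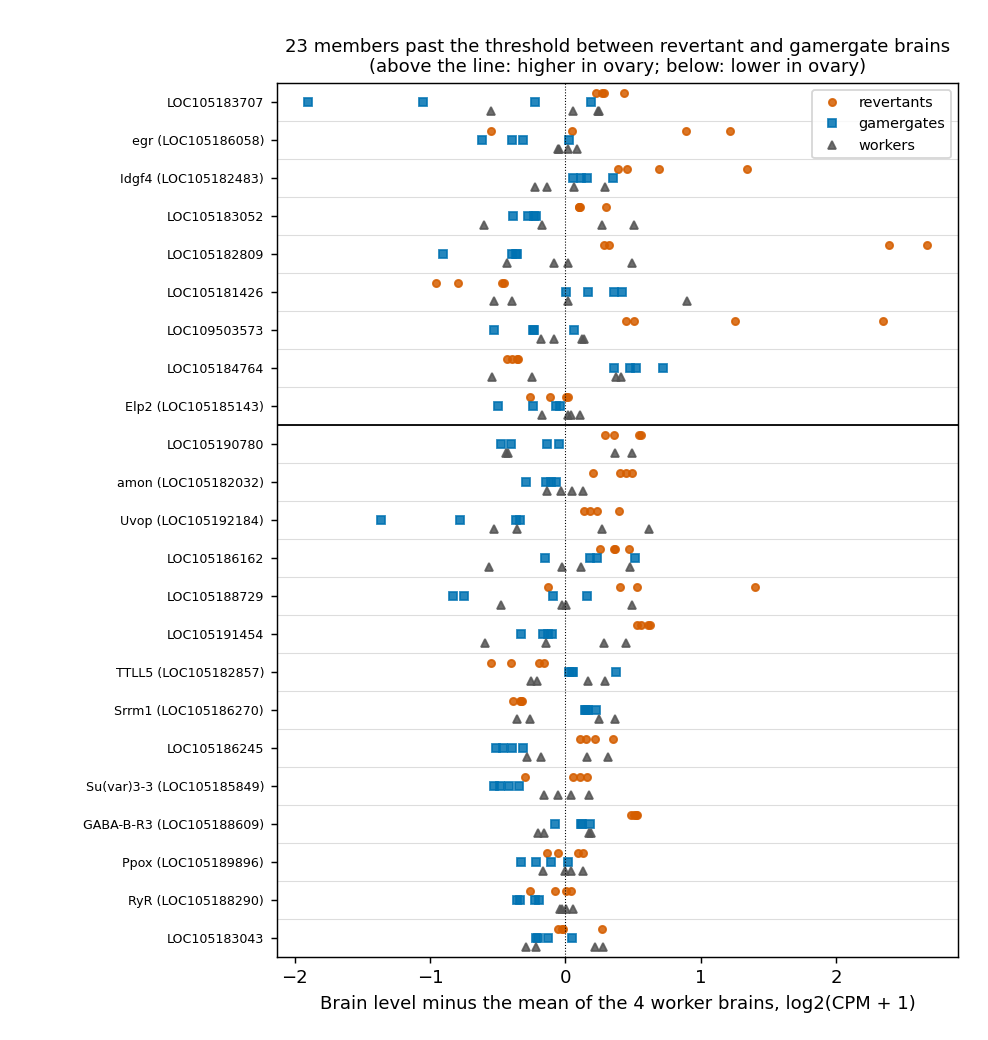
Brain level of the 23 members past the threshold between revertant and gamergate brains, as log2(CPM + 1) minus the mean of the 4 worker brains, in each revertant (circles), gamergate (squares) and worker library (triangles). In rows such as LOC105190780, LOC105191454 and Srrm1 the worker points form an upper and a lower pair, which are the deep and the shallow libraries.

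Amon had 566, 583, 602 and 492 CPM in revertant brains, 397, 408, 388 and 349.7 CPM in gamergate brains and 441, 417, 467 and 388 CPM in worker brains, with all revertants above all other brains, which is the opposite side from the ovary, where revertants lay below workers. Its log2 fold change over gamergates was 0.71 ± 0.08 (SE, adjusted p = 2.90e-05, edgeR). LOC105190780, lower than workers in ovary, had 211, 209, 175 and 184 CPM in revertant brains, 130.1, 139, 108 and 103 CPM in gamergate brains and 185, 106, 201 and 105 CPM in worker brains. The workers again divided by depth. Su(var)3-3 had 47.2, 60.5, 65.2 and 62.7 CPM in revertant brains, all above the gamergates, with a log2 fold change of 0.63 ± 0.11 (adjusted p = 4.81e-04, edgeR) and revertant 1 the nearest to them. RyR had 3428, 3153, 2776 and 3336 CPM in revertant brains, 2844, 2907, 2589.9 and 2632 CPM in gamergate brains and 3268, 3329.5, 3464 and 3243 CPM in worker brains. Its change of 0.38 ± 0.09 (adjusted p = 0.00439, edgeR) was among the smaller ones. Ppox changed by 0.33 ± 0.11 (adjusted p = 0.0214, edgeR) and Elp2 by 0.29 ± 0.11 (adjusted p = 0.0456, edgeR).

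Among the unnamed genes, LOC105182809 had the largest change between revertant and gamergate brains, at 2.49 ± 0.55 (SE, adjusted p = 0.00279, edgeR), followed by LOC109503573 at 1.82 ± 0.48 (adjusted p = 0.00793, edgeR). LOC109503573 had 76.7, 19.8, 20.7 and 35.5 CPM in revertant brains, 9.62, 12.04, 15.01 and 11.98 CPM in gamergate brains and 15.8, 12.5, 13.4 and 15.7 CPM in worker brains, so the 4 revertants exceeded all 8 other brains. LOC105188729 had 17.3, 35.5, 11.6 and 18.95 CPM in revertant brains, 6.79, 7.23, 14.4 and 11.98 CPM in gamergate brains and 12.6, 18.4, 12.9 and 8.96 CPM in worker brains, with overlap between revertants and gamergates. LOC105183707, LOC105183052, LOC105186162 and LOC105183043 were higher in revertants by 0.32 to 1.21 on the log2 scale, with adjusted p values of 0.00425 to 0.0426 (edgeR). LOC105183043 had 225 to 284 CPM in revertant brains, 202 to 242 CPM in gamergate brains and 192 to 285 CPM in worker brains.

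The 4 members lower in revertant than in gamergate brains were LOC105181426, LOC105184764, Srrm1 and TTLL5. LOC105184764, higher than workers in ovary, had 39.8, 42.3, 40.9 and 42.03 CPM in revertant brains, 78.1, 89.7, 75.6 and 69.6 CPM in gamergate brains and 36.7, 70.5, 45.5 and 72.4 CPM in worker brains. Its log2 fold change was -0.75 ± 0.08 (SE, adjusted p = 3.41e-05, edgeR), and workers 1 and 3 were near the revertants. LOC105181426 changed by -0.79 ± 0.16 (adjusted p = 0.00133, edgeR), with 11.2 to 16.3 CPM in revertant brains and 22.8 to 30.7 CPM in gamergate brains. Srrm1 had 445, 439, 424 and 442 CPM in revertant brains, 650.1, 615, 613 and 622 CPM in gamergate brains and 433, 659.6, 462 and 717 CPM in worker brains. The deep and shallow worker brains differed in Srrm1 by more than the revertant and gamergate means did, at -0.62 against -0.51 on the log2(CPM + 1) scale. TTLL5 changed by -0.28 ± 0.10 (adjusted p = 0.0377, edgeR).

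Partners of the named members, listed by symbol after the members were known, gave 0 genes past the threshold between revertants and workers in either tissue (edgeR, 1 of 22 in ovary and 4 of 23 in brain at an unadjusted p under 0.05). Also listed were 5 other genes of the TNF and JNK route (wgn, a receptor for Eiger, Traf4, bsk, Jra and kay). Of these, 1 was higher and 2 were lower in gamergate than in worker ovaries, and 0 passed the threshold between revertant and worker ovaries. In brain 4 of the 5 were higher in revertants than in gamergates, a comparison in which 57.4% of all genes were called and castes differed in depth. Of 8 other histone deacetylase and corepressor genes (CoRest, Sin3A and HDAC3 among them), 2 were higher and 4 lower in gamergate than in worker ovaries. Between revertant and worker ovaries 0 of the 8 passed. Lop1 and Lop2, the long-wavelength opsins, were both lower in gamergate than in worker ovaries and both higher in revertant than in gamergate ovaries. Their ovary log2 fold changes of revertants over workers were -1.95 ± 0.69 and -0.59 ± 0.41 (SE, edgeR), and 0 of the 2 passed the threshold. Uvop itself was selected on these libraries. These tests are edgeR's, adjusted over all genes of each comparison. Of all genes, 58.3% were called between gamergate and worker ovaries and 57.8% between revertant and gamergate ovaries. Between revertants and workers 0 of 8667 ovary genes and 0 of 9360 brain genes were called. So nothing particular to these lists is read from the counts.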

How the data were processed

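RNA was measured by poly(A)-selected RNA-seq of single ants, with 12 ovary and 12 brain libraries (4 revertants, 4 gamergates and 4 workers each). The authors trimmed reads with Trimmomatic, aligned them with STAR (version 2.5.3a in the submitters' processing notes) and deposited raw read counts per gene. How reads of overlapping genes or of near-identical copies were counted is not given in the sources used here, and such genes are uncertain. Columns were matched to samples by name. Gene symbols came from RefSeq and protein names from the annotation published with the study.

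CPM was each count divided by its library total, and levels were log2(CPM + 1). Pairs of castes were compared by the quasi-likelihood test of edgeR 4.0.16 (R 4.3.3) after filterByExpr and TMM scaling, at an adjusted p of 0.05 (Benjamini-Hochberg). DESeq2 1.42.0 served as an alternative. The script was tested on simulated data. The members and all gene lists were chosen with earlier results of these data known. Values in every library are given for the 10 members with the largest gap in each direction and for those past the threshold in brain, and ranges for other members with a name. P-values measure the spread between these ants, which share colonies. Replicate numbers were not treated as a pairing, since the labels do not say what they mark.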

Additional observations from a re-analysis of the deposited data

Results flagged for a closer look

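Groups of 4 libraries were examined in each of 3 castes. They covered the members given by library or by range in ovary, named or not, and the 23 past the threshold in brain. Of 192 groups, 9 held a library far from the other 3 by Dixon's criterion at 95%, and chance gives about 1 in 20. All values are log2(CPM + 1). In ovary, LOC105182908 was 3.19 in revertant 4, against 4.00 to 4.08 in the other revertants. Uvop (LOC105192184) was 3.14 in revertant 1, against 3.76 to 3.85 in the other revertants, and LOC105181426 was 4.34 in revertant 1, against 3.79 to 3.87. Pisd (LOC105181839) was 5.17 in gamergate 1, against 5.35 to 5.38 in the other gamergates. L(3)02640 (LOC105189717) was 5.475 in worker 4, against 5.71 to 5.74 in the other workers. In brain, LOC105183052 was 4.22 in revertant 1, against 4.02 to 4.03 in the other revertants, and LOC105183043 was 8.15 in revertant 2, against 7.82 to 7.86. LOC105182809 was 5.14 in gamergate 2, against 5.65 to 5.69 in the other gamergates, and TTLL5 (LOC105182857) was 7.496 in gamergate 3, against 7.15 to 7.18.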

How the results depend on the processing

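The number of ovary genes in the stated order, 44, was 68 without the condition on overlap and 43 to 287 with 1 library left out (67 without revertant 4, 287 without worker 3, 74 without worker 4). Of the 44, 21 stayed under TMM sizes, 24 under DESeq2 size factors and 39 to 44 with 1 library left out. In ovary, members past the threshold between revertants and workers numbered 8 by DESeq2's Wald test and 3 with library size class as a term, against 0, and 0 to 1 with 1 library left out (1, LOC109503573, without revertant 3). Between gamergates and workers in ovary the range with 1 library left out was 30 to 35, against 36. Between revertants and gamergates in ovary there were 5 with DESeq2 size factors, 7 by DESeq2's Wald test, 5 in one fit of 12 libraries and 1 to 5 with 1 library left out (5 without revertant 3, 1 without gamergate 3), against 3. In brain, DESeq2 called 1 member between revertants and workers, against 0, and leaving out 1 library gave 0 to 0. Between gamergate and worker brains there was 1 in one fit of 12 libraries (Su(var)3-3) and 1 with size class as a term (LOC105185993), against 0, with 0 to 1 when 1 library was left out (1 without worker 4). Between revertant and gamergate brains size class as a term gave 0, against 23, and leaving out 1 library gave 17 to 21. The cause of these changes was not tested.

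With replicate number as a block, members past the threshold between revertants and gamergates in ovary numbered 0 (edgeR, 4 at an unadjusted p under 0.05), against 3. The block gave 33 between gamergates and workers in ovary and 23 between revertants and gamergates in brain, and 0 in the other comparisons. Over all genes it gave 51 between gamergate and worker brains, against 89. Deviations of same-numbered libraries of different castes from their caste means correlated at -0.20 to 0.50 within a tissue. The numbers were therefore not taken as pairs of castes in the main fits. This does not bear on whether a number marks the same ant in both tissues. Ovary fold changes of revertants over workers were refitted for 39 members given by library or by range, named or not. Of these, 543 alternative values moved by less than the spread and 3 by more, and none changed sign. The shallowest ovary and brain libraries held 1663266 and 1339043 counts, which limits genes near 5 CPM.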
